A study of Mus musculus with 6 samples.

Results

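The genes described here are 9 relatives of Bapx1, the homeobox gene also named Nkx3-2: Nkx2-2, Nkx2-3, Nkx2-5, Nkx6-1, Tlx1, Tlx3, Lbx1, Msx1 and Msx2. They were chosen by name from the NK type of homeobox genes, without Nkx3-2 itself, out of 22367 protein-coding genes of the annotation. For each gene a window was taken that held the gene body and 100 kb on either side on the mouse assembly mm9, and the question was whether Bapx1 was found at its relatives. The windows of Tlx1 and Lbx1, which neighbour each other on chromosome 19, shared 124256 bp, but no peak lay in the shared stretch.

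Chromatin immunoprecipitation followed by sequencing (ChIP-seq) was used in 2 settings, with 1 library per condition. The vertebral column of CD1 embryos at E12.5 carrying an endogenous Bapx1 gene tagged with S-peptide was precipitated with an S-Peptide antibody, and vertebral columns of wildtype CD1 embryos of the same age, precipitated with the same antibody, served as control. Both embryo libraries were made from pooled embryos, and the tag, which also holds a calmodulin binding peptide, lies at the N-terminus of the protein made from its own locus. In NIH3T3 cells, a mouse fibroblast line, V5 tagged Bapx1 was overexpressed and precipitated with a V5 antibody, and the control is labelled both as cells given the empty pcDNA6 vector and as wild type 3T3. The overexpressed protein was thus not made from its own locus, and its level was not measured here. The depth was 24855032 tags for Bapx1 and 20704235 for its control in the vertebral column, and 9124697 for V5-Bapx1 and 13327426 for its control in NIH3T3 cells. With 1 library per condition no spread between embryos or cultures could be measured, and all intervals given below cover counting error only.

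NK homeobox genes encode transcription factors whose homeodomain binds short DNA words, and in many animals they lie in clusters that arose from an ancestral gene. The proteins set the identity of progenitors in the neural tube, mesoderm, gut and skull, and several of them act mainly as repressors. Bapx1 is needed for the ventromedial part of the vertebrae and for the spleen. Relatives share much of the homeodomain, and their proteins can bind similar words.

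The libraries were checked at the gene that had been tagged before the relatives were read. In V5-Bapx1 NIH3T3 cells 1830 tags lay in the 2000 bp of Nkx3-2 exons, or 915 tags per kb, against 4.18 per kb in the rest of its window. The library labelled as V5 control also held 380 tags there, or 190 per kb, against 5.25 per kb in the rest of the window, although neither of its labels names a Bapx1 construct. In the vertebral column the same exons held 21.0 and 13.0 tags per kb in Bapx1 and control. The exons of the relatives held 0 to 12 tags each in V5-Bapx1 cells, between 0 and 3.56 per kb. The excess at Nkx3-2 is thus described only as tags at its exons, and its part in the values at the relatives was not tested. It leaves the content of the V5 control in doubt, and every NIH3T3 ratio given below, like the NIH3T3 peaks, rests on this control.

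The vertebral column list held 3 peaks in the windows, at 3 of the 9 genes, against 25.1% of all protein-coding genes that had a summit in a window built the same way. The genes were Nkx2-5, Nkx6-1 and Msx1. Nkx2-5 encodes a factor of the heart progenitors and is also a marker of the spleen anlage. Nkx6-1 patterns ventral neural progenitors and the beta cells of the pancreas, and Msx1 acts in teeth and the face. The genes without a vertebral column peak were Nkx2-2, Nkx2-3, Tlx1, Tlx3, Lbx1 and Msx2. The sequences below are the 101 bp of mm9 around each summit, on the plus strand, and are shown because they are all the places in these windows at which Bapx1 was called in the embryo. Capitals mark TGAGTG or TAAGTG on either strand, the 2 words by which Bapx1 is known to bind.

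Nkx2-5, chr17:27069958-27070058: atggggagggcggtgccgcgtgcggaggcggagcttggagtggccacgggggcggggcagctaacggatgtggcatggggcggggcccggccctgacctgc
Nkx6-1, chr5:102112541-102112641: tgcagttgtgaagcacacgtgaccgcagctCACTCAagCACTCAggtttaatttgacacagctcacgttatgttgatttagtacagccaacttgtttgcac
Msx1, chr5:38116690-38116790: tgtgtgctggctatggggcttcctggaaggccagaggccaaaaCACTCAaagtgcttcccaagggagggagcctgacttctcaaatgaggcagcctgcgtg

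The word TGAGTG, read on the minus strand as CACTCA, stood at 2 of the 3 summits. It occurred 2 times near Nkx6-1 and 1 time near Msx1, and neither word was found near Nkx2-5. Over all 2815 summits of this list 31.3% held either word within 50 bp, and with 3 summits the share of 66.7% had an exact binomial (Clopper-Pearson) interval of 9.43 to 99.2%. The longer form of the word, followed by a G, stood at none of them, against 12.3% of all summits.

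The Msx1 site had the smallest p of the 3. The peak lay at chr5:38116522-38116948, between genes, with its summit 99082 bp downstream of the Msx1 start and 8348 bp from the start of Stk32b, which encodes a protein kinase and was the nearest gene. It held 38 ChIP tags, with a fold enrichment of 16.6 and a 10 times −log10 (p) of 193, as the peak caller gave them. Within 200 bp of the summit there were 40 tags with Bapx1 and 3 with the control. In NIH3T3 cells the same 401 bp held 0 tags with V5-Bapx1 and 3 with its control. The high count of the vertebral column ChIP library follows from the peak call, and only the NIH3T3 counts are independent of it.

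The Nkx6-1 site was the only one of the 3 whose nearest start belonged to the member itself. The peak lay at chr5:102112430-102112776, between genes, with its summit 18346 bp upstream of the Nkx6-1 start. It held 31 ChIP tags, a fold enrichment of 14.4 and a 10 times −log10 (p) of 152. Within 200 bp of the summit Bapx1 gave 32 tags and the control 3, whereas V5-Bapx1 and its control in NIH3T3 cells gave 1 and 2. At this site too the high count with Bapx1 in the vertebral column follows from the peak call.

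The Nkx2-5 site lay at the start of another gene. The peak at chr17:27069797-27070133 had its summit 91498 bp upstream of Nkx2-5 and 64 bp from the start of Phf1, which encodes a partner of the Polycomb repressive complex. It was the weakest of the 3, with 23 tags, a fold enrichment of 8.20 and a 10 times −log10 (p) of 94.3. Bapx1 gave 26 tags within 200 bp and the control 5, and in NIH3T3 cells V5-Bapx1 gave 9 tags and its control 8, a ratio of 1.57 (0.539 to 4.69). Scaled to depth, both ChIP libraries were at nearly the same level at this summit, while the NIH3T3 control was above the vertebral column control. The vertebral column ratio was 4.33 (1.64 to 14.4), which follows from the peak call. The false discovery rate that the peak caller attached, which rests on how many peaks it finds when the libraries of a pair trade places, was 37.2% for the Msx1 peak, 53.0% for Nkx6-1 and 65.8% for Nkx2-5.

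**Figure D1:**
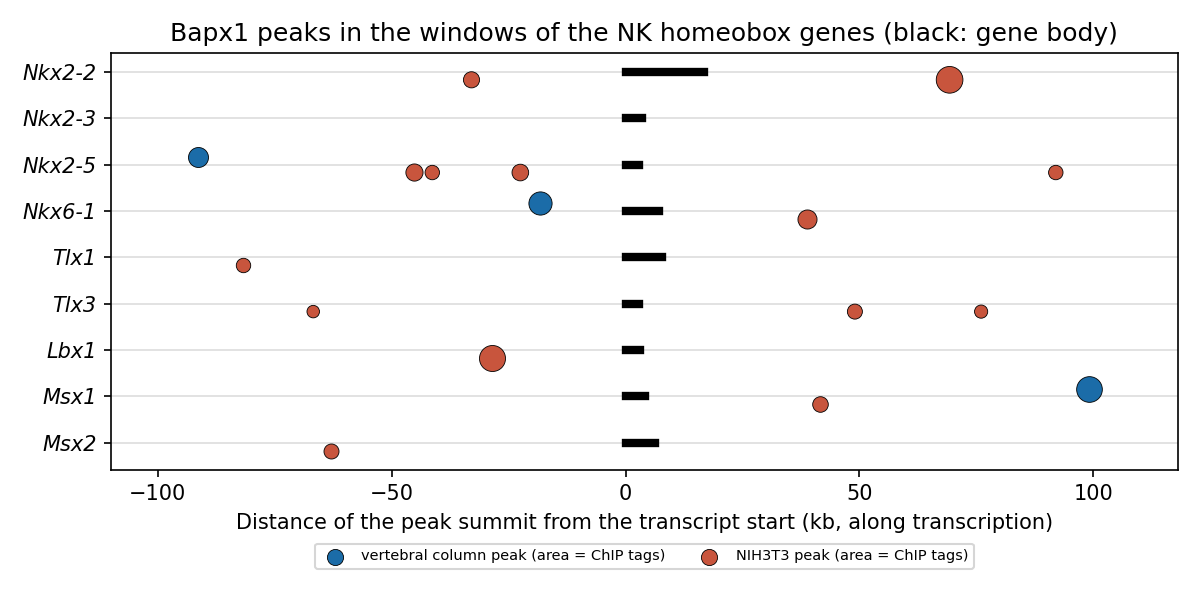
Positions of the 3 vertebral column peaks (blue) and the 14 NIH3T3 peaks (red) in the windows of the 9 genes. The horizontal axis is the distance of the summit from the most 5′ transcript start in kb, along the direction of transcription, with negative values upstream. The black bars are gene bodies and the area of a circle is the peak's count of ChIP tags. No circle lies within 5 kb of a start, and Nkx2-3 has none at all. No share over all summits stands beside the count near starts, so it does not set these genes apart.

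In NIH3T3 cells the list held 14 peaks in the windows, at 8 of the 9 genes, against 81.0% of all protein-coding genes. Nkx2-3, a gene of the spleen and gut mesoderm, was the gene with none. Nkx2-5 had 4 peaks, Tlx3 had 3, Nkx2-2 had 2, and Nkx6-1, Tlx1, Lbx1, Msx1 and Msx2 had 1 each. Per length, the windows held 8.09 summits per Mb (95% Poisson interval 4.42 to 13.6), and the chromosomes as a whole held 8.74 per Mb. For the vertebral column list the densities were 1.73 per Mb (0.358 to 5.07) and 1.06 per Mb. The members' gene bodies were short, with a median of 4099 bp against 15427 bp for all protein-coding genes. Their windows were therefore also shorter than most, except that of Nkx2-2, whose body held 16698 bp. In neither list did the density in the windows differ from that of the chromosomes beyond counting error. The sequences below are the 101 bp at the NIH3T3 summit with the smallest p of each gene, with the same capitals, and are shown so that the words at the strongest site of each gene can be compared.

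Nkx2-2, chr2:146950658-146950758: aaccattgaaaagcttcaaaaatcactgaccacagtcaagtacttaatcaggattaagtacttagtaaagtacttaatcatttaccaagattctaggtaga
Nkx2-5, chr17:27023605-27023705: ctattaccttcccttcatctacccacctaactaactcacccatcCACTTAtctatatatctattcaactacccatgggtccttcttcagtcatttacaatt
Nkx6-1, chr5:102055439-102055539: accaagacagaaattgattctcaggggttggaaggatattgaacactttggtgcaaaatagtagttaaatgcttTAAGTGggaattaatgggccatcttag
Tlx1, chr19:45141895-45141995: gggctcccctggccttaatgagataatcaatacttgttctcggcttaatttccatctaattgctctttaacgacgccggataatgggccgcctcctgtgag
Tlx3, chr11:33054517-33054617: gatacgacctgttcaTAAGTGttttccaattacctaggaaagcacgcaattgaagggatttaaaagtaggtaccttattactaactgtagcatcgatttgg
Lbx1, chr19:45338881-45338981: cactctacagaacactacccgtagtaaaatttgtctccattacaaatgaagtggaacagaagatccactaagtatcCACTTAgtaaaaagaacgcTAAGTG
Msx1, chr5:38174189-38174289: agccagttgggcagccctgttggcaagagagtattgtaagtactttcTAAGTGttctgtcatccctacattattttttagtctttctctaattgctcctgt
Msx2, chr13:53631423-53631523: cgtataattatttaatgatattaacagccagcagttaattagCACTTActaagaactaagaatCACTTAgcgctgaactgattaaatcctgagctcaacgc

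Of the 14 summits 9 held TGAGTG or TAAGTG within 50 bp, or 64.3% (interval 35.1 to 87.2%), against 64.4% of all 23205 summits of the list. At these 9 summits every match was TAAGTG, which stood at 57.0% of all NIH3T3 summits, and TGAGTG stood at none, against 15.1%. At the vertebral column summits TGAGTG stood at 2 of the 3 and TAAGTG at none, against 506 and 432 of the 2815 summits of that list. Among the 8 sequences shown, those of Lbx1 and Msx2 held the word 2 times, those of Nkx2-5, Nkx6-1, Tlx3 and Msx1 held it 1 time, and those of Nkx2-2 and Tlx1 held neither word. The other summits with a match were the second one of Nkx2-2 and 1 more each of Nkx2-5 and Tlx3. With the longer form, followed by a G, 5 of the 14 summits and 24.6% of the list kept a match.

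The strongest NIH3T3 peak lay between Nkx2-2, which specifies ventral neural progenitors, and Nkx2-4, a close relative that lies beside it. The peak at chr2:146950579-146950896 held 41 tags, a fold enrichment of 61.0 and a 10 times −log10 (p) of 442. Its summit was 69271 bp downstream of the Nkx2-2 start and 39527 bp from the start of Nkx2-4, whose window also held it. V5-Bapx1 gave 41 tags within 200 bp and its control 3. In the vertebral column Bapx1 gave 4 tags and the control 5, a scaled ratio of 0.666 (0.132 to 3.10). The sequence at this summit held neither of the words searched, but the palindrome AAGTACTT occurred in it 3 times. This word was picked after the sequence was seen. It occurred within 50 bp of 3.46% of the NIH3T3 summits and of 0.710% of the vertebral column summits, and 3 or more copies stood at 7 of the 23205 NIH3T3 summits. A copy also stood at 1 other of the 14 summits. The second Nkx2-2 peak, at chr2:147052794-147053103, lay in an intron of the antisense gene Nkx2-2as, 32951 bp upstream of the Nkx2-2 start, and held 15 tags with V5-Bapx1 and 0 with its control.

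The peak near Lbx1, a gene of dorsal spinal interneurons and of migrating muscle precursors, was the next by p. It lay at chr19:45338703-45339106, between genes and 28630 bp upstream of the Lbx1 start, which was the nearest start. It held 39 tags with a fold enrichment of 25.8 and a 10 times −log10 (p) of 244. V5-Bapx1 gave 38 tags within 200 bp and its control 7, while the vertebral column gave 5 with Bapx1 and 4 with the control.

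The Nkx6-1 peak of NIH3T3 cells was not the vertebral column peak of the same gene. It lay at chr5:102055369-102055684, 38756 bp downstream of the start, on the other side of the gene from the vertebral column summit. It held 21 tags with a fold enrichment of 20.2. V5-Bapx1 gave 21 tags within 200 bp and its control 4, against 7 and 3 in the vertebral column, a ratio of 1.94 (0.444 to 11.6).

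Msx1 and Msx2, which act together in the skull and in teeth, had weaker NIH3T3 peaks. For Msx1 the peak at chr5:38174080-38174377 lay 41583 bp downstream of the start and gave 14 tags with V5-Bapx1 and 3 with its control. The vertebral column gave 2 and 4 there. For Msx2 the peak at chr13:53631239-53631728 lay 63030 bp upstream, nearest to Gm5449, and gave 13 tags with V5-Bapx1 and 1 with its control. There the vertebral column gave 5 with Bapx1 and 3 with the control.

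The strongest Tlx3 peak lay 102 bp from the start of Npm1, which encodes an abundant nucleolar protein. Tlx3 itself, a selector of glutamatergic neurons, began 49021 bp away. The peak at chr11:33054450-33054863 gave 11 tags within 200 bp with V5-Bapx1 and 3 with its control, against 4 and 2 in the vertebral column. The other two Tlx3 peaks lay in introns of Fgf18 and Ranbp17.

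The Tlx1 peak lay 81781 bp upstream of Tlx1, a gene needed for the spleen, and 7786 bp from the start of Kazald1. Within 200 bp of the summit of this peak, at chr19:45141829-45142203, V5-Bapx1 gave 11 tags and its control 2. In the vertebral column Bapx1 gave 1 tag and the control 8, a ratio of 0.104 (0.00235 to 0.777). This was the 1 summit of the 14 called lower in the vertebral column pair, against 0.875% of the whole list. Of the 4 Nkx2-5 peaks, 3 lay 22509 to 45145 bp upstream of the start, in introns of the gene models Gm17382 and Gm20468. The strongest of them, at chr17:27023353-27023777, gave 16 tags within 200 bp of its summit with V5-Bapx1 and 4 with its control. The vertebral column gave 10 and 4 there. Of the 14 summits 5 had the member itself as the nearest gene.

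**Figure D2:**
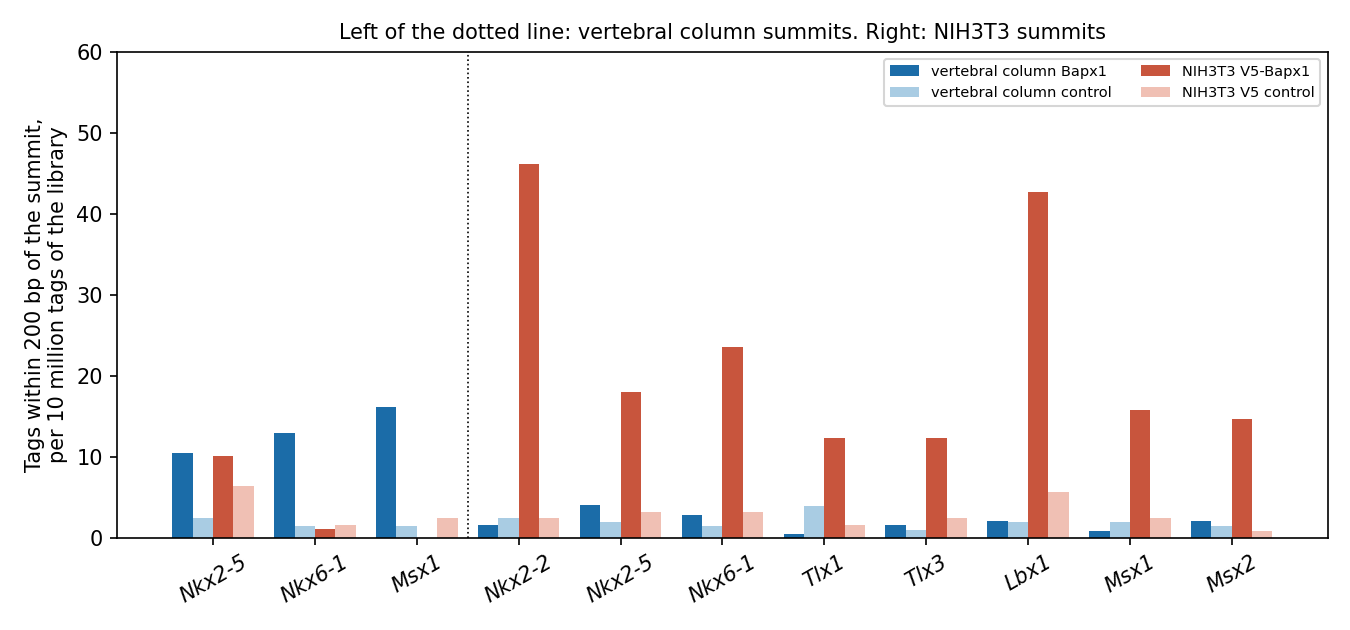
Tags within 200 bp of 11 summits in each of the 4 libraries, scaled to the depth of the library. Blue bars are the vertebral column libraries and red bars the NIH3T3 libraries, dark for Bapx1 and pale for the control. The 3 summits on the left come from the vertebral column list and the 8 on the right are the NIH3T3 summits with the smallest p of each gene. At Nkx2-5 on the left both ChIP libraries stand at nearly the same height, and the NIH3T3 control stands above the vertebral column control. In every other group the tallest bar belongs to the library in which the peak was called. The peak call itself fixed that this bar exceeds that of its own control.

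Whether the sites of one setting were seen in the other was then asked with the pair of libraries that had not called them. A summit was called if the ChIP over control ratio, scaled to depth, was at least 2 with a lower 95% limit above 1. Of the 3 vertebral column summits 0 were called higher in the NIH3T3 pair, against 11.0% of the whole list, and 0 lower, against 0.497%. Summed over the 3, V5-Bapx1 gave 10 tags and its control 13, a ratio of 1.08 (0.422 to 2.66), while the whole list gave 1.69 (1.64 to 1.74). Of the 14 NIH3T3 summits 0 were called higher in the vertebral column pair, against 2.19% of the whole list. Their sums were 80 and 60 tags, a ratio of 1.11 (0.785 to 1.58), and the whole list gave 1.12 (1.11 to 1.13). At this depth a call needed 9 V5-Bapx1 tags over 3 control tags in NIH3T3 cells and 14 Bapx1 tags over 3 in the vertebral column. With so few summits and a share that was low in the lists as a whole, a count of 0 does not set the members apart.

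No peak of one list overlapped a peak of the other in these windows by even 1 bp. Over the lists as wholes 6.39% of the vertebral column peaks and 0.776% of the NIH3T3 peaks had such an overlap. Nkx2-5, Nkx6-1 and Msx1 had peaks in both lists, at different places. An NIH3T3 summit lay in the windows of 81.0% of all protein-coding genes. The share of all genes with peaks in both lists was not counted, so this does not set the genes apart.

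The starts of the genes were read next, since they were given by the annotation and not by the peaks. Tags were counted within 1 kb of the most 5′ start of each gene. In the vertebral column 0 of the 9 starts were called higher with Bapx1, against 1.59% of all protein-coding starts, and 0 were called lower, against 1.18%. The ratios ran from 0.714 at Nkx2-5, with 18 tags in Bapx1 and 21 in the control, to 1.14 at Nkx2-2, with 37 and 27 tags. Their median was 0.916, and that of all starts was 1.02. The upper limits of the 9 ratios lay between 1.22 at Lbx1 and 2.0 at Tlx1. The value of Nkx2-2 rests on the start chosen, since other annotated starts of this gene gave ratios of 1.49 (0.744 to 3.10) and 1.44 (0.737 to 2.93). Summed over the 9 starts Bapx1 gave 244 tags and the control 218, a ratio of 0.932 (0.773 to 1.12). All 9 intervals included 1, so a difference between Bapx1 and its control was not detectable at any of these starts.

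Gene by gene, the vertebral column values at the most 5′ starts lay close together. The neural genes Nkx2-2, Nkx6-1, Tlx3 and Lbx1 had ratios of 1.14, 0.984, 1.07 and 0.743. Nkx2-5, a gene of the heart and the spleen anlage, and the spleen genes Nkx2-3 and Tlx1 had ratios of 0.714, 0.866 and 0.892. Msx1 had 22 tags against 20 and Msx2 had 31 against 24, with ratios of 0.916 and 1.08. The order of the genes is not resolved, since every interval overlapped all the others. The start of Nkx3-2 itself gave 46 tags with Bapx1 and 23 with the control, a ratio of 1.67 (0.989 to 2.88), which was not called either.

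**Figure D3:**
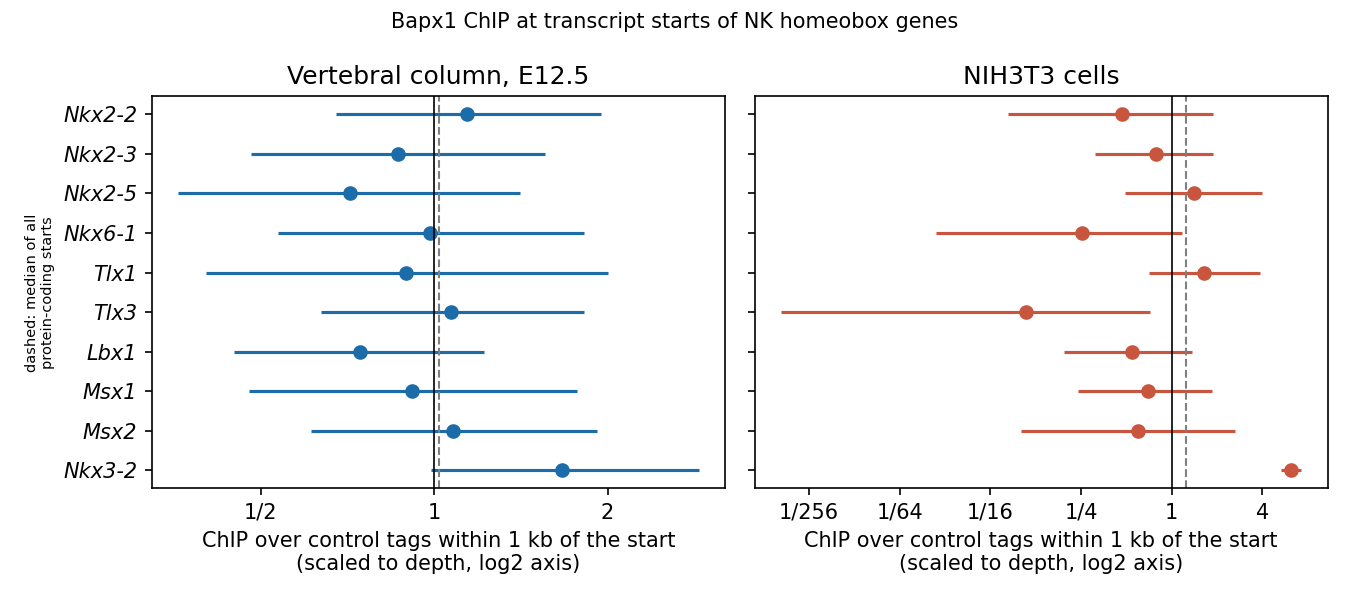
ChIP over control ratios within 1 kb of the transcript start for the 9 genes and Nkx3-2, in the vertebral column (left) and in NIH3T3 cells (right), on log2 axes of different range. Points are ratios scaled to depth and lines are exact 95% intervals for counting error. The solid line marks 1 and the dashed line the median of all protein-coding starts. The 9 relatives lie at or below 1.63 in both panels, while Nkx3-2 in NIH3T3 cells stands at 6.18, where the tags at its exons are counted.

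In NIH3T3 cells the median ratio of the 9 starts lay below that of all starts, although Tlx1, at its most 5′ start, and Nkx2-5 stood above it. Of the 9 starts 0 were called higher, against 19.4% of all protein-coding starts, and 1 was called lower, with a ratio of 0.5 or less and an upper limit below 1, against 3.15%. The start called lower was that of Tlx3, with 1 tag in V5-Bapx1 and 13 in its control, a ratio of 0.108 (0.00253 to 0.717). The median ratio of the 9 was 0.600, and that of all starts was 1.25. Their sums were 55 tags and 109, a ratio of 0.706 (0.501 to 0.985), whereas all starts gave 1.42 (1.41 to 1.43). Scaling to the tags outside peaks, a factor of 1.05 on every NIH3T3 ratio, would take the upper limit of 0.985 past 1.

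After Tlx3 the lowest ratios were those of Nkx6-1, Nkx2-2 and Lbx1. Nkx6-1 gave 2 tags with V5-Bapx1 and 11 with its control, Nkx2-2 gave 3 and 9, and Lbx1 gave 7 and 18, with ratios of 0.254 (0.0274 to 1.17), 0.466 (0.0812 to 1.87) and 0.544 (0.192 to 1.37). Msx2 gave 3 and 7 and Msx1 gave 7 and 14, with ratios of 0.600 (0.100 to 2.63) and 0.700 (0.239 to 1.85). Nkx2-3 gave 9 and 16, a ratio of 0.787. Above 1 stood Nkx2-5, with 9 tags in each library and a ratio of 1.4 (0.492 to 3.98), and Tlx1, with 14 and 12 and a ratio of 1.63 (0.701 to 3.86). The value of Tlx1 rests on the start chosen, since its other annotated start gave 7 and 16 tags, a ratio of 0.612 (0.213 to 1.57). Apart from Tlx3 all of these intervals included 1, and an increase of 2-fold stayed inside the intervals of Nkx2-5, Tlx1 and Msx2. The 9 intervals all overlapped each other, so neighbours in this order are not told apart.

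The base composition of these starts also differed from that of most genes. The 2 kb around the 9 starts had a median GC content of 59.1%, against 51.1% for all starts, and the most 5′ start of Tlx1, with the highest NIH3T3 ratio of the 9, had the lowest GC content at 44.2%. Among all protein-coding starts with 55 to 65% GC the median NIH3T3 ratio was 1.33, and the 4 relatives in that range had a median of 0.360. From 45 to 55% GC, the range with the most starts, the median over all starts was 1.4, and the 3 relatives there had a median of 0.787. Below 45% GC the median over all starts was 0.979, and above 65% it was 1.03, with 1 relative in each. The part of base composition in the ratios of the 9 genes was not tested. The median control count at the 9 starts was 24.0 in the vertebral column, with a range of 14 to 37, and 12.0 in NIH3T3 cells, with a range of 7 to 18. Over all starts the medians were 24.0 and 13.0.

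**Figure D4:**
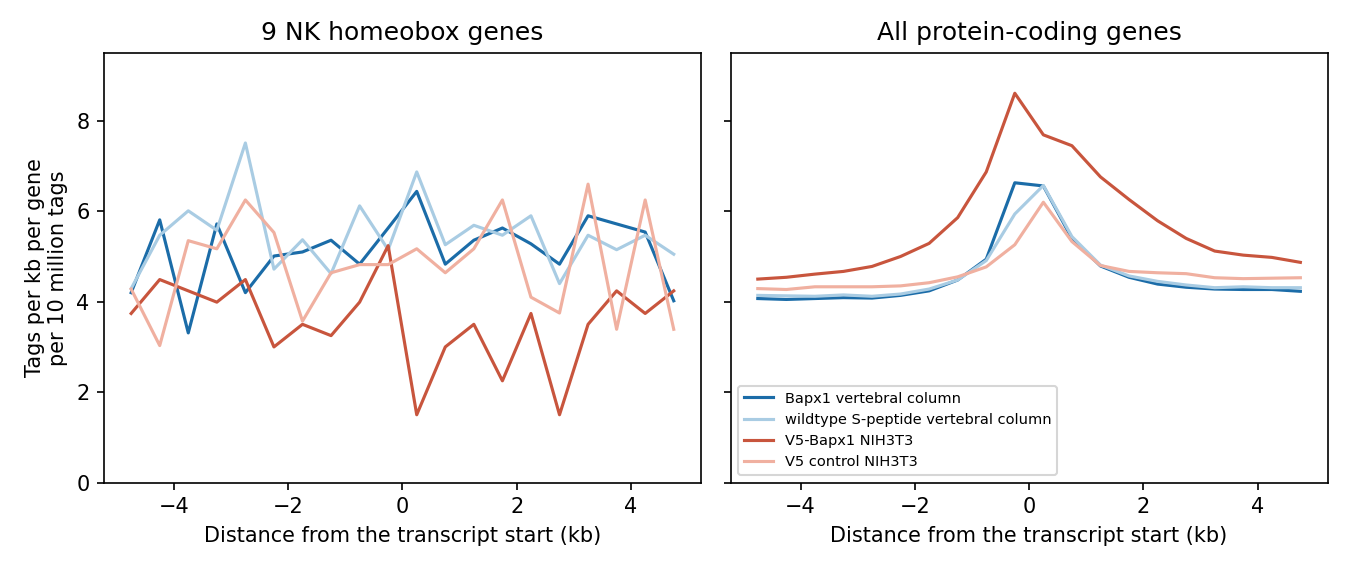
Tags per kb per gene, scaled to the depth of each library, in bins of 500 bp within 5 kb of the transcript start, for the 9 genes (left) and for all protein-coding genes (right). The horizontal axis runs along the direction of transcription. In the bin just upstream of the start V5-Bapx1 in NIH3T3 cells stands at 5.24 for the 9 genes, from 21 tags, with its control at 4.82, and at 8.61 for all genes. In the bin just downstream it stands at 1.5 for the 9 genes, from 6 tags, with its control at 5.17, and at 7.69 for all genes.

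The words by which Bapx1 binds were searched for at these starts. TGAGTG or TAAGTG occurred within 1 kb of the start in 7 of the 9 genes, or 77.8%, and in 86.0% of all protein-coding genes, and the median number of matches was 1 at the 9 starts and 2 over all starts. The 2 genes without a match were Tlx3 and Lbx1. In the promoters given by RefSeq on GRCm38.p6, which run from 250 bases before to 50 after a start, 8 of the 9 genes were matched by symbol. Of these 8 promoters 3 held a word, those of Nkx2-2, Nkx2-5 and Nkx6-1, against 23.9% of all RefSeq promoters. The match is of letters and does not mark a site.

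The windows were also read as wholes. In the vertebral column the ChIP over control ratio of the 9 windows ran from 0.946 to 1.05, and the 5th to 95th percentile of all protein-coding windows ran from 0.921 to 1.07. All 9 vertebral column intervals included 1, while 10.2% of the windows of all genes had an interval below 1. In NIH3T3 cells the windows ran from 0.795 at Nkx6-1 and 0.819 at Msx1 to 1.02 at Nkx2-3, and the same percentiles of all genes from 0.807 to 1.25. The NIH3T3 interval lay below 1 for 4 of the 9 windows, against 17.3% of all protein-coding windows. Tags in the 124256 bp shared by Tlx1 and Lbx1 were counted in both windows, so the 9 are not fully separate. These were the windows of Nkx6-1 (0.724 to 0.873), Msx1 (0.751 to 0.894), Lbx1 (0.809 to 0.960) and Nkx2-2 (0.814 to 0.998), and the Nkx6-1 ratio was below the 5th percentile of all genes. Scaling to the tags outside peaks would multiply every NIH3T3 ratio by 1.05. The upper limits of Lbx1 and Nkx2-2 would then pass 1, and the share of 17.3% holds only for the scaling used here. The controls held 7.91 to 10.6 tags per kb in the vertebral column and 4.46 to 7.52 in NIH3T3 cells, so no window was missing from either control.

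The exons of the relatives were counted by themselves, and their tags are also part of the window counts. In NIH3T3 cells 3 of the 9 had an interval below 1, against 7.07% of all protein-coding genes, and in the vertebral column 0 of the 9, against 2.92%. Msx1 exons held 0 tags with V5-Bapx1 and 9 with its control, and Nkx2-3 exons held 5 and 22, a ratio of 0.318 (0.0941 to 0.861). Tlx1 exons held 11 and 33, a ratio of 0.466 (0.213 to 0.946). The intervals of the other six included 1, with ratios from 0.155 (0.00355 to 1.12) at Tlx3, from 1 tag against 9, to 1.12 (0.478 to 2.56) at Nkx6-1, from 12 tags against 15.

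Bapx1 words outside the called peaks were counted as a further measure, which was chosen after the peaks had been seen. The windows of the 9 genes held 498 places with TGAGTG or TAAGTG followed by a G. In the vertebral column the tags within 50 bp of all of them, each more than 500 bp from a summit, were 609 with Bapx1 and 474 with the control, a ratio of 1.07 (0.948 to 1.21). In NIH3T3 cells 487 places were left, with 297 tags against 328, a ratio of 1.27 (1.08 to 1.49). At 500 bp on either side of the same places the NIH3T3 ratio was 0.971 (0.852 to 1.10), and the vertebral column ratio was 0.989 (0.907 to 1.08). Over all chromosomes the NIH3T3 ratio at such places was 1.47 (1.47 to 1.48) and in the vertebral column 1.03 (1.03 to 1.04). In NIH3T3 cells the ratio at the words in the windows was above that of their flanks, but the intervals overlapped and the difference was not tested. The interval of the 9 windows reached just above the value of the chromosomes as a whole.

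A list of 37 other NK-type homeobox genes, among them the Dlx, Hmx, Barx, Emx and En genes, was read at the starts in the same way. In the vertebral column 0 of the 37 starts were called higher and 0 lower, with a median ratio of 1.01, against 1.59% and 1.18% of all starts and their median of 1.02. In NIH3T3 cells 0 were called higher and 8 lower, against 19.4% and 3.15% of all starts, and the median was 0.560, against 1.25. The 8 were Dlx5, Dlx6, Emx1, En2, Hhex, Hmx1, Nkx1-1 and Nkx6-2. A vertebral column summit lay in the windows of 2 of the 37 genes, namely Barx2 and En2, or 5.41% against 25.1% of all protein-coding genes. An NIH3T3 summit lay in the windows of 30, or 81.1% against 81.0%. The En2 summit, 93711 bp upstream of En2 in an intron of Insig1, gave 32 tags with Bapx1 and 7 with its control. V5-Bapx1 gave 16 tags there and its control 4, a ratio of 5.60 (1.81 to 23.0). This met the call, as did 11.0% of the whole vertebral column list. The Barx2 summit, 73766 bp downstream, gave 15 and 4 in the vertebral column and 4 and 2 in NIH3T3 cells. Its vertebral column ratio of 3.12 (0.995 to 12.9) did not meet the call. The false discovery rate of the peak caller was 70.3% for the En2 peak and 54.8% for the Barx2 peak. NIH3T3 summits within 5 kb of a start were found at Dlx2, 3965 bp downstream, with 12 tags against 4, and at En1, 2795 bp downstream in its intron, with 15 against 5. These were 2 of the 37 genes. No share over all protein-coding genes stands beside this count, so it does not set them apart.

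The window of Nkx3-2 held 1 vertebral column peak, 31686 bp upstream in an intron of Bod1l, with 16 tags against 3 within 200 bp of its summit. The false discovery rate of this peak was 61.8%. A distal NIH3T3 peak lay 34000 bp upstream in the same gene, with 14 tags against 4. The remaining NIH3T3 peaks of Nkx3-2 lay in its coding exons, where both NIH3T3 libraries held the excess of tags described above. They are described only as tags at these exons and are not read as binding.

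The limit of 100 kb decided some of these counts. The vertebral column summit farthest inside the limit was that of Msx1, 94984 bp from the gene body, and the nearest one outside lay 134109 bp from Nkx6-1 with 21 tags. In NIH3T3 cells a peak of 43 tags lay 100709 bp from Tlx1 and a peak of 26 tags lay 100787 bp from Nkx2-3, each less than 1 kb beyond the limit, while the farthest inside was that of Nkx2-5 at 89078 bp. The nearest vertebral column summit of the other six genes lay 179813 bp from the start of Msx2 to 670416 bp from the start of Nkx2-3.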

How the data were processed

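ChIP-seq was measured in 4 mm9 libraries, 1 per condition, and the Sox9 and IgG libraries were not used here. The files the authors deposited list, per library, where each uniquely mapping 35 bp read fell, with at most 2 mismatches, on mm9, the build in the submitters' processing notes, by the Illumina pipeline. The authors also deposited MACS peaks called against the matching control at p of 1e-05, each with a count of ChIP tags and, as the authors' caller gave them, a score that is 10 times −log10 (p), a ratio of fold enrichment and an error rate (FDR) in percent. No peaks were called again.

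Positions were joined to the GENCODE annotation and sequence of NCBIM37, which is mm9. The depth was 24853758 and 20702403 tags on chromosomes 1 to 19, X and Y in the vertebral column and 9115805 and 13323449 in NIH3T3 cells, where 2.36 and 6.53% repeated a position and strand. In all, 1 tag was kept per position and strand. Tags were counted by the centre of their 35 bp within 200 bp of a summit or 1000 bp of the most 5′ start. Ratios were scaled to the kept tags. Intervals at 95% are exact binomial (Clopper-Pearson) or exact Poisson, and PCR reads are not independent molecules. With 1 library per condition no test between conditions was made and no p-value is given. The calls were tested on simulated Poisson counts, which hold counting error only, and the counting on tags of the V5 control library. The software was Python 3.11.15, numpy 2.4.6, pandas 2.3.3, scipy 1.17.1 and, for the plots, matplotlib 3.10.9.

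Named were all 9 genes, Nkx3-2, every vertebral column peak in a window of the 9 and the NIH3T3 peak with the smallest p of each gene. Of 37 other NK-type genes, those with a called start or a summit within 5 kb of the start were named. Other peaks and genes named were added after their values had been seen. Among them are the remaining NIH3T3 peaks of Nkx2-2, Nkx2-5, Tlx3 and Nkx3-2, and the vertebral column summits of Barx2 and En2. The members and lists were chosen with earlier results of these data known. Alternatives were other window sizes, a p of 1e-10, peak centres, protein-coding transcripts, all tags, another scaling, tags moved by 100 bp, a ratio of 1.5, every distinct start and a longer motif.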

Additional observations from a re-analysis of the deposited data

Results flagged for a closer look

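The library labelled as V5 control held 190 tags per kb in the exons of Nkx3-2, against 5.25 per kb in the rest of the same window, and the wildtype S-peptide control of the vertebral column held 13.0 per kb in these exons. This signal lies in a control library that neither label connects with Bapx1, and it was noted because it is above the other control. What the V5 control contained is therefore in doubt, and every NIH3T3 ratio and peak given here was taken against it. Groups of 1 library have no spread in which a sample can stand apart.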

How the results depend on the processing

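Of 52 alternatives to 10 results, 42 left the count within 1.5 times the value reported and 10 moved it further. Many of the 42 belong to results with a count of 0 that stayed at 0, where such a factor has no meaning. All 10 that moved belong to counts above 0. Calls of a higher ratio at the summits in the other pair and at the transcript starts stayed at 0 under every alternative run for them, among them other windows, all tags, another scaling, tags moved by 100 bp, a ratio of 1.5 and, for the starts, every distinct start. The calls of a lower ratio, at the Tlx3 start and the Tlx1 summit, were not followed under these alternatives. With a flank of 50 kb the vertebral column peaks fell to 1, at 1 gene, and the NIH3T3 peaks to 8. With a flank of 200 kb there were 6 vertebral column peaks and 29 NIH3T3 peaks. At a p of at most 1e-10 the NIH3T3 list kept 4 peaks, at 3 genes, 3 of them with a motif. With the motif followed by a G there were 0 matches in the vertebral column list and 5 in the NIH3T3 list. These alternatives admit fewer or more peaks or words by construction. The shares of all protein-coding genes given above hold for 100 kb and the full lists only. No paired analysis was possible because there was 1 library per condition. Depth limits the summit calls, since the NIH3T3 control held 0 to 8 tags within 200 bp of the summits in the windows.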
